A study of Homo sapiens with 2 samples.

Results

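Regulators of neural crest identity and of melanoma dedifferentiation were followed in A375 melanoma cells, 10 genes in all: the receptors AXL and NGFR and the transcription factors SOX2, SOX4, SOX9, SOX11, TFAP2A, TFAP2B, MSX1 and FOXD3. The genes were chosen by symbol and were taken from the 33538 genes of the count matrices. A375 is an established human melanoma cell line, and 2 single-cell RNA libraries were compared, 1 for each group. The parental library held untreated cells. The persister library held the A375 cells that remained after coculture for 15 days with cytotoxic T lymphocytes (CTLs) that recognise the cancer-testis antigen NY-ESO-1, with interleukin 2 at 7.5 ng/mL and fresh CTLs at intervals of 3 days. Whether parental cells were given interleukin 2 is not stated. Because each group is 1 library of 1 cell line, coculture, culture and library cannot be told apart, no test between groups was possible, and every interval below covers counting error only.

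Melanocytes descend from the neural crest, an embryonic population that migrates out of the dorsal neural tube. SOX and AP-2 factors, MSX1 and FOXD3 specify that population, and melanoma cells that lose melanocyte features can carry neural crest genes again. AXL, a receptor tyrosine kinase bound by GAS6, and NGFR, the low-affinity neurotrophin receptor also called p75 or CD271, are widely used as markers of such dedifferentiated melanoma states.

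After filtering, 10630 of 10751 parental and 6605 of 7144 persister barcodes were kept, holding 88110998 and 79546026 unique molecular identifiers (UMIs, each a distinct captured molecule). The median cell held 7590 UMIs in the parental library and 11284 in the persister library. A further 162 persister barcodes and 0 parental barcodes that passed depth and mitochondrial limits carried at least 3 of 6 T cell genes and were set aside, and 32 kept barcode sequences occurred in both libraries. The 12 melanoma markers together came to 449.8 counts per 1000000 UMIs (CPM) in the parental and 1499 CPM in the persister library. MIA made up 168 and 1064 CPM of these sums, and SOX10, S100B, S100A1, CSPG4, MITF and PRAME were the other markers above 5 CPM, MITF and PRAME at lower levels in persister cells. The pigment cell genes MLANA, PMEL, DCT and TYRP1 were each at 11 UMIs or fewer in both libraries and TYR was at 0. The 10 T cell markers summed to 2.93 CPM and 8.39 CPM in the kept cells, 5 fibroblast markers to 2.93 and 1.68 CPM, and 3 endothelial markers to 0.499 and 0.214 CPM. The 4 Schwann or glia markers summed to 28.9 and 59.2 CPM, and the 3 keratinocyte markers to 561.8 and 824.0 CPM, of which KRT10 made up 521 and 789 CPM. The part of such markers in the results was not tested.

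Of the 10 regulators, 9 reached 5 CPM in at least one library. SOX4 and FOXD3 were at least 2-fold higher in persister cells, and SOX2 and TFAP2B were at least 2-fold lower. AXL, NGFR, SOX11, TFAP2A and MSX1 lay between these limits. Among all 9938 genes measured at that level, 10.1% passed as higher and 10.8% as lower, so 20.8% passed in either direction, beside 4 of 9 regulators. The median log2 ratio was 0.14 over the 9 regulators and -0.15 over all measured genes. TMM scaling (trimmed mean of M values) moved the median of all genes to -0.03 and the share of passing genes that were higher from 48.3% to 58.8% (1151 higher and 808 lower), and it left the regulators' counts at 2 and 2. The 10 genes together came to 183.2 CPM in the parental and 250.5 CPM in the persister library. SOX4 alone made up 18.0% of their UMIs in the parental and 50.6% in the persister library, and without SOX4 the sums were 150.3 and 123.8 CPM.

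**Figure D1:**
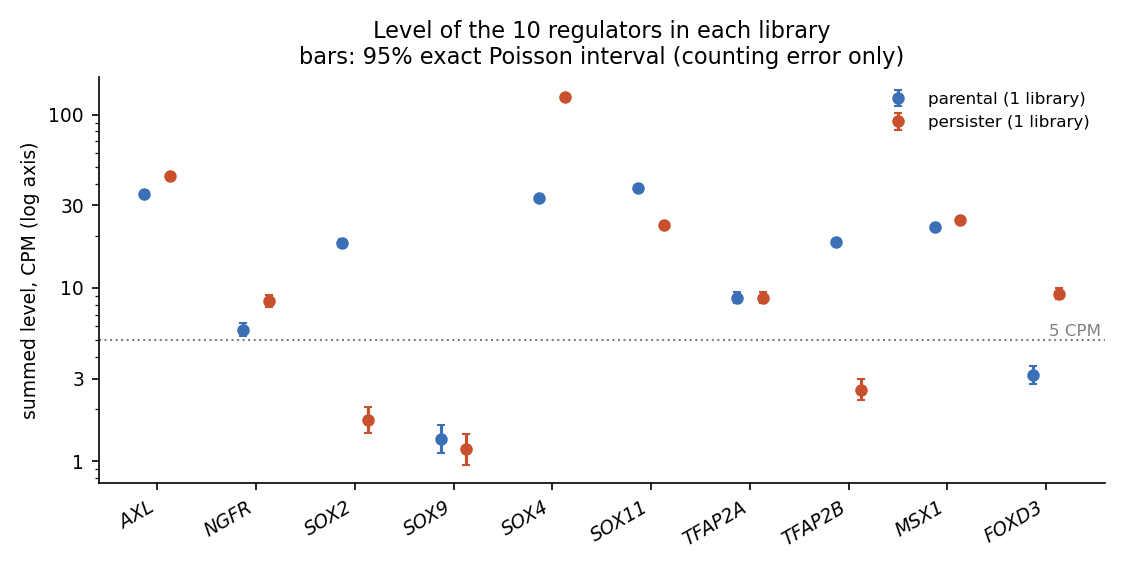
Summed level of each regulator in the parental (blue) and persister (red) library, in CPM on a log axis, with 95% exact Poisson intervals that cover counting error only. SOX4 stands at 32.9 and 127 CPM and SOX2 at 18.1 and 1.73 CPM, while SOX9 is below the dotted line at 5 CPM in both libraries.

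**Figure D2:**
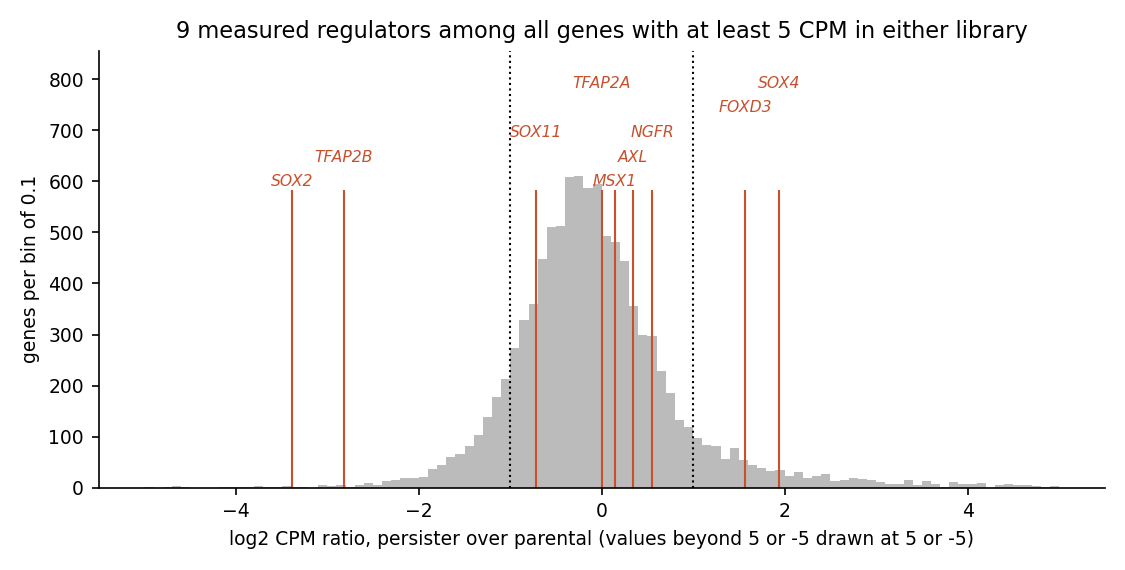
Histogram of the log2 CPM ratio (persister over parental) of the 9938 measured genes, in bins of 0.1, with the 9 measured regulators as red lines and the 2-fold limits as dotted lines. SOX2 (-3.39) and TFAP2B (-2.82) lie in the left tail, SOX4 (1.94) and FOXD3 (1.57) to the right of the upper limit.

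The start regions of the 4 genes that passed 2-fold are printed here because they carry the largest differences among the 10. They run from 250 bases before to 50 bases after the RefSeq start on GRCh38.p14, 5′ to 3′ on the gene's strand. Capitals mark matches, on either strand, to GCCNNNGGC (AP-2), ACAAAG and ACAATG (SOX), TGANTCA (AP-1), CATGTG (M-box) and CACGTG (the E-box bound by MITF).
SOX4 chr6:21593501-21593800 (+ strand): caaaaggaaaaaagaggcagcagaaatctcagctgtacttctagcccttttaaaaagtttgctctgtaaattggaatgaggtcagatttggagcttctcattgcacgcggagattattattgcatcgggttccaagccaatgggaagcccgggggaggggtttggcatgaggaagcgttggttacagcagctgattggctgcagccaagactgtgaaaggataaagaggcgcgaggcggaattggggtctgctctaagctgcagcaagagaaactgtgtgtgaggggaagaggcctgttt
FOXD3 chr1:63322317-63322616 (+ strand): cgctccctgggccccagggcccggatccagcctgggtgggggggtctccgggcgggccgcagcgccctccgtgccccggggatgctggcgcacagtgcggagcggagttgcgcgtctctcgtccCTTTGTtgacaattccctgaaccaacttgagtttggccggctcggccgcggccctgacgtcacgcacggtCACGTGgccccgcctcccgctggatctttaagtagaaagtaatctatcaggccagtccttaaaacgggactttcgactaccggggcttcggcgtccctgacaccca
SOX2 chr3:181711675-181711974 (+ strand): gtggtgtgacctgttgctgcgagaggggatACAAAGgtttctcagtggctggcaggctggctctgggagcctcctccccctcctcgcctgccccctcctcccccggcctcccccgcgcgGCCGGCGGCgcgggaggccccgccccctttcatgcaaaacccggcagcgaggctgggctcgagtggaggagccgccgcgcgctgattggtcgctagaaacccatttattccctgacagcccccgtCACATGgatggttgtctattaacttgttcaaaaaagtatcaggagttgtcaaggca
TFAP2B chr6:50818621-50818920 (+ strand): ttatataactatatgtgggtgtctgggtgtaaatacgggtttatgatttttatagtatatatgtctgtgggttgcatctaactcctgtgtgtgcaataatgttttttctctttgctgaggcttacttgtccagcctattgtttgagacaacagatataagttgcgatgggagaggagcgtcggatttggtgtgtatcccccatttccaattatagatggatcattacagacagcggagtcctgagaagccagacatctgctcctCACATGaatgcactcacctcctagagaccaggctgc

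The SOX4 window held none of these letters. The FOXD3 window held a SOX match starting 126 bases before the start and a CACGTG 56 bases before, and no matches overlapped. In the SOX2 window a SOX match lay 220 bases before the start, an AP-2 match 131 bases before and an M-box match 6 bases before. The TFAP2B window had an M-box match 14 bases after the start. Such matches were common: of 35116 promoter windows of that length, 23.2% held the AP-2 letters, 16.1% ACAAAG, 10.8% ACAATG, 7.71% the AP-1 letters, 11.1% the M-box and 7.26% CACGTG. A match is a description of the sequence and not a bound site. RefSeq windows were found for 7 of the 10 genes, and NGFR, SOX9 and SOX11 were not among them.

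AXL (chromosome 19, 41219203-41261766, plus strand, GRCh38) was detected at 34.8 CPM (3066 UMIs) in the parental and 44.2 CPM (3512 UMIs) in the persister library. The ratio was 1.27 (95% interval 1.21 to 1.33), and 75.1% of measured genes had a lower ratio. With every cell reduced to 5000 UMIs, an AXL UMI was held by 15.3% of the 9094 parental cells (interval 14.5 to 16.0%) and by 18.5% of the 5897 persister cells (17.5 to 19.5%), so the intervals did not overlap. Without that reduction the shares were 23.6% and 36.6%, which also reflects the deeper persister library. AXL was thus detected in both untreated and surviving cells, with a modest difference. Most AXL-positive cells held 1 UMI, and 1.52% of parental and 2.42% of persister cells held 2 or more.

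Of the other 6 genes of the receptor's own system, 2 passed the 5 CPM limit. GAS6, its ligand, was at 3.098 CPM in the parental and 15.7 CPM in the persister library, a ratio of 5.08 (4.45 to 5.81). TYRO3, a related receptor, was at 8.11 and 2.55 CPM, a ratio of 0.314. The ligand was therefore higher and the sister receptor lower beside an AXL level that passed neither limit.

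NGFR (chromosome 17, 49495293-49515017, plus strand) was sparse. It stood at 5.75 CPM (507 UMIs) in the parental and 8.44 CPM (671 UMIs) in the persister library, a ratio of 1.47 (1.30 to 1.65). An NGFR UMI was seen in 2.61% of parental and 3.53% of persister cells at 5000 UMIs (intervals 2.29 to 2.95% and 3.07 to 4.03%), and in 4.43% and 7.86% of cells without reduction. Neither library therefore held NGFR UMIs in more than a small share of its cells.

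Of the 19 other neurotrophins, neurotrophin receptors and NGFR adaptors, 8 were measured, 1 passed as higher and 2 as lower, with a median log2 ratio of -0.60. BDNF, a secreted neurotrophin, was at 3.33 CPM in the parental and 30.03 CPM in the persister library. NDN, which binds the intracellular part of NGFR, was at 12.1 and 3.48 CPM, and SORT1, the NGFR co-receptor sortilin, at 7.16 and 3.00 CPM. RIPK2, an adaptor kinase, was at 10.3 and 17.2 CPM. NTRK2, the high-affinity receptor for BDNF, stayed below 1 CPM in both, at 0.431 and 0.955 CPM.

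Among the SOX factors, SOX2 (chromosome 3, 181711924-181714436, plus strand), a factor of stem cells and neural progenitors, had the lowest ratio of the 10 genes. It was at 18.1 CPM (1598 UMIs) in the parental and 1.73 CPM (138 UMIs) in the persister library, 10.5-fold lower (8.78 to 12.5), and 0.221% of measured genes had a lower ratio. At 5000 UMIs, a SOX2 UMI was held by 8.41% of parental cells (interval 7.85 to 9.002%) and by 0.780% of persister cells (0.572 to 1.04%). No persister cell held 2 SOX2 UMIs at that depth, beside 0.836% of parental cells. The 162 T-marker barcodes of the persister library were at 2.34 CPM for SOX2 (2 UMIs, 0.283 to 8.45), so the persister level cannot be told from that of those barcodes at this depth.

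SOX4 (chromosome 6, 21592768-21598619, plus strand), a SOXC factor of neural crest and mesenchymal progenitors, had the highest ratio of the 10 genes. It stood at 32.9 CPM (2902 UMIs) in the parental and 127 CPM (10077 UMIs) in the persister library, a ratio of 3.85 (3.69 to 4.01), above 95.8% of measured genes. Cells with a SOX4 UMI at 5000 UMIs made up 14.2% (13.5 to 15.0%) of parental and 39.0% (37.8 to 40.3%) of persister cells. Both the share and the amount per cell were higher: 1.79% of parental and 16.3% of persister cells held 2 or more UMIs, and 1 parental but 75 persister cells held 5 or more. The variance of SOX4 UMIs over their mean was 1.15 in the parental and 1.81 in the persister library, where the median gene seen in at least 5% of cells had 1.02 and 1.03. In the persister library this was above 97.6% of those genes. T-marker barcodes of that library held SOX4 at 87.7 CPM (69.0 to 110). With every barcode cut to 1000 UMIs, 11.4% of persister cells (interval 10.6 to 12.2%) and 5.56% of T-marker barcodes (2.57 to 10.3%) held a SOX4 UMI, with median depths before that cut of 11284 and 3568 UMIs.

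SOX11 (chromosome 2, 5692667-5701385, plus strand), also a SOXC gene, differed from SOX4 in direction. It was at 37.7 CPM (3323 UMIs) in the parental and 23.0 CPM (1829 UMIs) in the persister library, a ratio of 0.610 (0.576 to 0.646). The share of cells with a SOX11 UMI at 5000 UMIs was 16.1% (15.3 to 16.8%) in the parental and 10.8% (10.0 to 11.6%) in the persister library. SOX11 was thus lower and SOX4 higher in the same library.

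SOX9 (chromosome 17, 72121020-72126420, plus strand), which drives neural crest and chondrocyte fates, was near the limit of detection. It was at 1.35 CPM (119 UMIs) in the parental and 1.18 CPM (94 UMIs) in the persister library, a ratio of 0.875 with an interval of 0.660 to 1.16. At 5000 UMIs it was seen in 0.660% of parental cells (interval 0.504 to 0.848%, 60 cells) and 0.339% of persister cells (0.207 to 0.523%, 20 cells), and without reduction in 1.03% and 1.15%. Among the cells with the fewest cell cycle UMIs, the lowest of 3 groups of about equal size in each library, 23 parental and 0 persister SOX9 UMIs were counted. In the middle group these were 21 and 7, and in the highest 17 and 14, a ratio of 1.27 (0.579 to 2.73). The groups are unlike between libraries: the lowest held 4 to 56 cell cycle UMIs per parental and 1 to 14 per persister cell. The summed level over all cells did not separate the libraries, while the shares at 5000 UMIs were lower in persister cells with barely overlapping intervals. Those shares and the counts in the 3 groups rest on a single random draw with few UMIs.

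Of the 16 other SOX genes, 4 were measured, 1 passed as higher and 1 as lower. SOX10, the melanocyte and Schwann lineage factor, was at 99.6 CPM in the parental and 179 CPM in the persister library, a ratio of 1.80. SOX5, a repressor in the same lineage, was at 104 and 44.9 CPM. SOX13 was at 3.72 and 10.2 CPM, and SOX12, the remaining SOXC gene, at 6.46 and 9.35 CPM, a ratio of 1.45.

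TFAP2A and TFAP2B encode AP-2alpha and AP-2beta, which bind the same DNA element and act in neural crest and melanocyte stem cells. TFAP2A (chromosome 6, 10393186-10419659, minus strand) was at 8.78 CPM (774 UMIs) in the parental and 8.80 CPM (700 UMIs) in the persister library, a ratio of 1.00 (0.903 to 1.11). TFAP2B (chromosome 6, 50818723-50847613, plus strand) was at 18.3 CPM (1613 UMIs) and 2.59 CPM (206 UMIs), 7.07-fold lower in persister cells (6.11 to 8.21), and 0.362% of measured genes had a lower ratio. TFAP2B made up 67.6% (65.7 to 69.5%) of the 2387 TFAP2A and TFAP2B UMIs of parental cells and 22.7% (20.05 to 25.6%) of the 906 of persister cells. The 2 genes are captured at different 3′ ends, so this share is compared between libraries and not read as a ratio of transcripts.

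At 5000 UMIs, 4.02% of parental and 4.17% of persister cells held a TFAP2A UMI, while 7.31% (6.79 to 7.87%) and 1.22% (0.957 to 1.54%) held a TFAP2B UMI. Of parental cells, 1.37% held 2 or more TFAP2B UMIs and 0.0990% 2 or more of TFAP2A, at means of 0.0915 and 0.0412 UMIs per cell. This share was larger for SOX11 (2.08%), SOX4 (1.79%) and AXL (1.52%), whose means were higher. The variance over mean of TFAP2B was 1.44 in parental cells, above 98.3% of genes seen in at least 5% of cells. The persister level of TFAP2B lay within the interval of the T-marker barcodes (1.17 CPM, up to 6.52) and cannot be told from that of those barcodes at this depth. TFAP2C, which encodes AP-2gamma and was the only other AP-2 gene measured, was at 62.5 and 46.4 CPM, a ratio of 0.742. TFAP2A-AS2 and TFAP2A-AS1 overlap TFAP2A on the opposite strand, at 2.29 and 1.63 CPM and at 0.749 and 1.21 CPM. Both were counted as entries separate from TFAP2A. How strand was used in counting is not stated, and whether their reads were counted for TFAP2A was not tested.

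MSX1 (chromosome 4, 4859666-4863936, plus strand), a homeobox factor of the neural plate border, was at 22.3 CPM (1968 UMIs) in the parental and 24.6 CPM (1958 UMIs) in the persister library, a ratio of 1.10 (1.03 to 1.17). A UMI was seen in 10.2% and 10.4% of cells at 5000 UMIs, with overlapping intervals. Single cells reached 8 UMIs in the parental and 12 in the persister library without reduction. Persister MSX1 lay inside the interval of the T-marker barcodes (8.95 to 27.5 CPM).

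FOXD3 (chromosome 1, 63323041-63325126, plus strand), a forkhead factor that keeps neural crest cells undifferentiated and represses MITF, was at 3.13 CPM (276 UMIs) in the parental and 9.28 CPM (738 UMIs) in the persister library. The ratio was 2.96 (2.58 to 3.41), above 94.3% of measured genes. A FOXD3 UMI was found in 1.51% (1.27 to 1.78%) of parental and 4.32% (3.82 to 4.87%) of persister cells at 5000 UMIs. FOXD3-AS1, which overlaps FOXD3 on the opposite strand, was at 6.30 CPM (555 UMIs) and 31.1 CPM (2475 UMIs), a ratio of 4.94. The 2 genes were counted as separate entries. Strand use in counting is not stated, and whether reads of one were counted for the other was not tested. T-marker barcodes held 3 FOXD3 UMIs (3.51 CPM, 0.723 to 10.3), an interval that includes the persister level. Across the 10 genes, AXL, NGFR, SOX4 and SOX11 of the persister cells lay above the interval of those barcodes. The parental library had no T-marker barcodes. Those of the persister library held AXL at 24.6 CPM and SOX4 at 87.7 CPM, and whether they give a background level was not tested. Their intervals for SOX2, TFAP2B and FOXD3 rest on 2, 1 and 3 UMIs, too few to separate such levels. At the matched depth used for SOX4, MSX1 was seen in 2.13% of persister cells and 0.617% of these barcodes (0.0156 to 3.39%). FOXD3 was seen in 1.03% and 0.617% (0.0156 to 3.39%), so neither gene was separated.

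Cell cycle state moved with the groups. Phases were called on cells cut to 5000 UMIs and scored over both libraries together. A call therefore depends on that mix, and the shares are not measured fractions of cells in each phase. By these calls 6.93% of parental and 62.1% of persister cells were G1, 26.9% and 11.1% S, and 66.2% and 26.8% G2/M. The 42 measured S phase genes had a median log2 ratio of -1.20, and the 54 of G2 and M phase -1.01. SOX4 in cells called G1, S and G2/M was 3.48, 2.87 and 4.20 times its parental level. SOX2 was lower in each phase, with ratios of 0.102, 0.0219 and 0.0617, and so was TFAP2B, with 0.0748, 0.0769 and 0.0973. The SOX2 and TFAP2B ratios in S phase rest on 1 and 3 persister UMIs.

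FOXD3 was 2.99 and 2.97 times higher in G1 and G2/M, but 1.32 (0.623 to 2.62) in S, where 12 persister UMIs were found. NGFR had ratios of 1.11, 2.13 (1.38 to 3.24) and 0.916. In cells called S, FOXD3 therefore dropped under the 2-fold limit and NGFR passed it. AXL had ratios of 1.42, 1.38 and 1.59. TFAP2B was also uneven among parental phases, with 43.8 CPM in cells called G1, 11.9 CPM in S and 18.2 CPM in G2/M, and its share of TFAP2A plus TFAP2B UMIs in G1 cells was 83.4% in the parental and 27.8% in the persister library. The part of cell cycle state in the differences between libraries was not tested beyond these values.

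**Figure D3:**
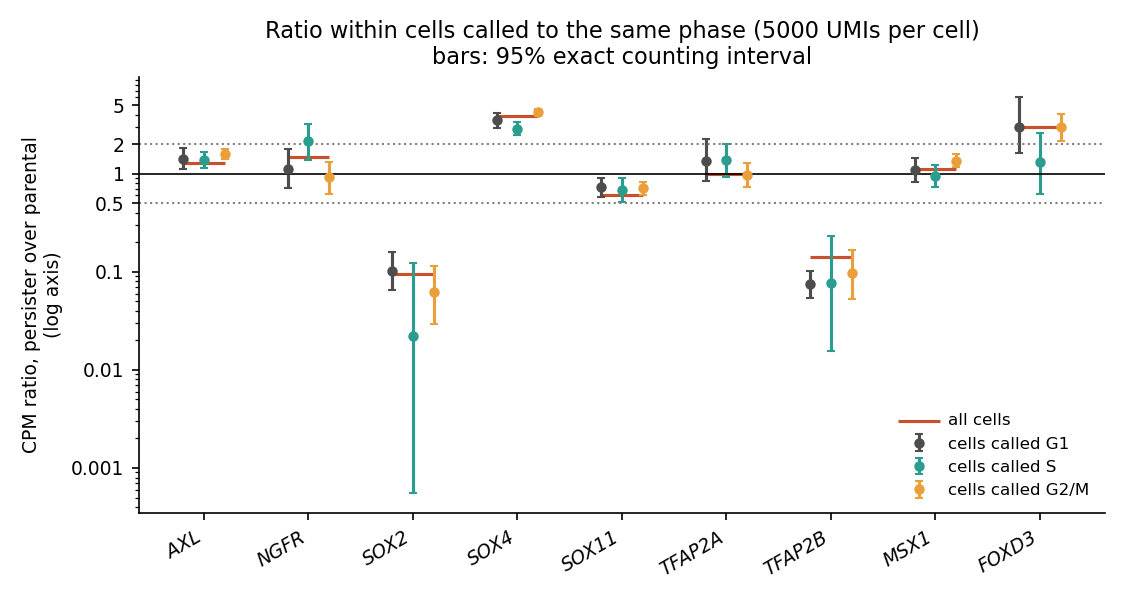
CPM ratio of persister over parental cells (log axis) within cells called G1 (grey), S (green) and G2/M (orange) at 5000 UMIs each, with 95% exact counting intervals, beside the ratio over all cells (red line). SOX4 is above 2 in each phase, SOX2 and TFAP2B are below 0.5 in each, and FOXD3 is at 1.32 in S.

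Other genes of these programs were counted from 8 lists of 132 genes, the 10 regulators left out. Of these, 60 were measured, 19 (31.7%) passed as higher and 11 (18.3%) as lower, with a median log2 ratio of 0.42, beside 10.1%, 10.8% and -0.15 over all genes. Among 15 measured neural crest regulators, 6 were higher and 2 lower. LMO4, a LIM-domain cofactor, was at 89.6 CPM in the parental and 564 CPM in the persister library. ETS1, a neural crest and melanoma transcription factor, was at 39.0 and 224 CPM, and PRDM1 at 1.16 and 6.74 CPM. PRRX1, a mesenchymal homeobox factor, was at 44.2 and 5.22 CPM, so single genes of that list differed in both directions.

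The dedifferentiated melanoma list had 22 measured genes, 6 higher and 3 lower. TMEM158 was at 12.9 and 127 CPM and TGFBI, an extracellular matrix protein, at 28.2 and 116 CPM. NES, the intermediate filament nestin, was at 92.6 and 25.5 CPM, and LOXL2, a collagen crosslinker, at 33.3 and 9.73 CPM. Of 10 measured melanocyte genes, 3 were higher and 2 lower. BCL2A1, a survival factor, was at 0.602 and 131 CPM and OCA2 at 2.19 and 8.06 CPM. LEF1 was at 12.8 and 4.14 CPM, and GPNMB at 32.3 and 10.9 CPM. MITF, the melanocyte master regulator, was at 13.8 and 6.99 CPM, a ratio of 0.508 that stayed just inside the 2-fold limit, and PAX3 was at 12.4 and 19.8 CPM. Neither list moved in a single direction.

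Single cells rarely held UMIs of several of the 10 genes. At 5000 UMIs, 42.4% of parental and 34.3% of persister cells held none, 39.3% and 42.7% held UMIs of 1 gene, 14.6% and 19.0% of 2 genes, and 3.12% and 3.39% of 3. For each pair, the cells with both were set against the number expected from the product of the 2 shares in that library. Of 45 pairs, 40 in the parental and 28 in the persister library had an expected number of at least 5.

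For AXL and NGFR the interval of the co-detection ratio included 1 in both libraries. In parental cells 33 held both against 36.2 expected, a ratio of 0.912 (0.628 to 1.28), and in persister cells 44 against 38.5, a ratio of 1.14 (0.830 to 1.53). The parental value varied with the setting. Averaged over all possible draws of 5000 UMIs the ratio was 1.05, and in a single draw of 2000 UMIs it was 2.17. Without reduction, where cells differ in depth, it was 1.40. No direction was therefore read for this pair. Of the cells with an AXL UMI, 2.38% of parental and 4.03% of persister cells held NGFR, beside 2.65% and 3.41% of those without. The ratios of AXL with every other gene seen in at least 1% of parental cells had a median of 1.00 and a 5th to 95th percentile range of 0.811 to 1.20.

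For TFAP2A and TFAP2B the interval likewise included 1 in both libraries. Parental cells with both numbered 24 against 26.8 expected, a ratio of 0.897 (0.575 to 1.33). Persister cells with both numbered 6 against 3.00 expected, a ratio of 2.00 with an interval of 0.733 to 4.35, which is below the minimum expected number of 5. In 342 parental cells TFAP2A was seen without TFAP2B and in 641 the reverse, and in persister cells these numbers were 240 and 66.

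Other pairs did depart from 1. In parental cells the interval lay above 1 for 7 of the 40 pairs and below 1 for 5, where 2.14% and 1.93% of all pairings of a regulator with another gene did so. Those pairings include genes seen in nearly every cell, whose ratio can only lie near 1, so the shares are not a like comparison. All 12 pairs of regulators kept their side of 1 when averaged over all draws of 5000 UMIs. TFAP2B took part in 7 of the 12. It was found more often than expected with FOXD3 (22 cells against 10.0, a ratio of 2.20, 1.38 to 3.32), SOX4 (140 against 94.6, 1.48), SOX11 (141 against 107, 1.32) and SOX2 (74 against 55.9, 1.32). It was found less often than expected with NGFR (8 against 17.3, a ratio of 0.462, 0.199 to 0.910), AXL (59 against 101, 0.581) and MSX1 (45 against 67.6, 0.665). SOX2 and FOXD3 shared 24 cells against 11.5 expected, a ratio of 2.08 (1.33 to 3.099). The ratios of TFAP2B with every other gene had a 5th to 95th percentile range of 0.680 to 1.37. Those with SOX11 and SOX2 lay inside it, though above the 95th percentile of the partner gene, 1.20 for SOX11 and 1.29 for SOX2.

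The remaining parental pairs were SOX4 with SOX11 (1.20), SOX2 with SOX11 (1.19), SOX2 with MSX1 (0.758) and NGFR with SOX11 (0.657). SOX2 with SOX11 lay inside the 5th to 95th percentile range of both genes, 0.756 to 1.29 for SOX2 and 0.797 to 1.20 for SOX11. NGFR with SOX11 lay inside that of NGFR (0.629 to 1.38) and below that of SOX11. SOX4 with SOX11 lay inside that of SOX4 (0.814 to 1.21) and just above that of SOX11. SOX2 with MSX1 lay just inside that of SOX2 and below that of MSX1 (0.775 to 1.24). For SOX4 and SOX11 with FOXD3 the parental intervals included 1, with ratios of 1.28 (0.830 to 1.89) and 1.14 (0.735 to 1.68). Expectations computed within phase left 6 pairs above and 5 below 1, with SOX2 and SOX11 no longer above.

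In persister cells 2 of 28 pairs lay above 1 and 2 below, where 2.38% and 2.46% of all pairings did so. SOX4 took part in each. SOX4 and SOX11 shared 310 cells against 249 expected, a ratio of 1.24 (1.11 to 1.39), and SOX4 and FOXD3 shared 124 against 99.5, a ratio of 1.25 (1.04 to 1.49). SOX4 and NGFR shared 39 against 81.2, a ratio of 0.480 (0.342 to 0.657), and SOX4 and AXL 379 against 426, a ratio of 0.889 (0.802 to 0.983). The last ratio was 1.02 without reduction of depth. Of the 27 pairs with enough cells in both libraries, only SOX4 with SOX11 was above 1 by its interval in both. In persister cells SOX4 with AXL lay inside the 5th to 95th percentile range of both genes. These ranges were 0.828 to 1.16 for SOX4 and 0.769 to 1.22 for AXL. SOX4 with SOX11 and with FOXD3 lay above the range of SOX4. Both lay inside that of the partner, 0.674 to 1.30 for SOX11 and 0.620 to 1.41 for FOXD3. Only SOX4 with NGFR lay outside both ranges, that of NGFR starting at 0.591.

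**Figure D4:**
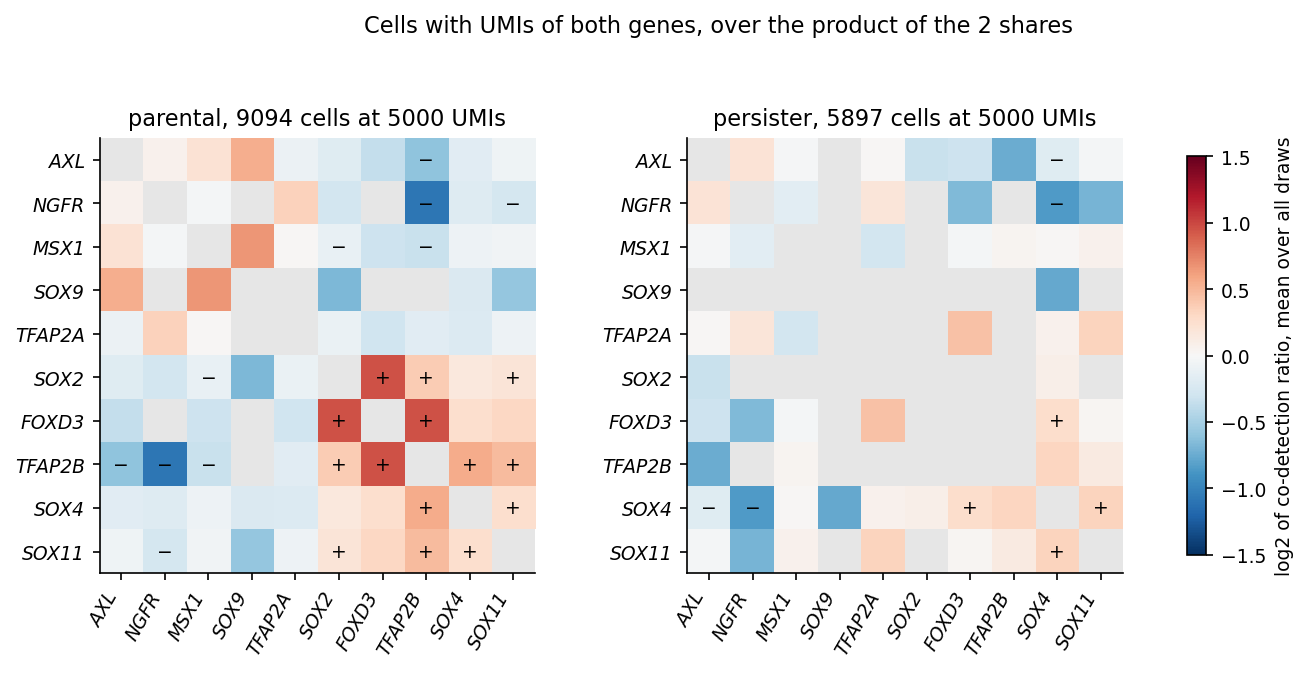
Co-detection ratio of each pair of regulators with an expected number of at least 5 cells, as the log2 of the mean over all draws of 5000 UMIs (red, more often than expected; blue, less often; grey, too few cells), in 9094 parental and 5897 persister cells. Plus and minus signs mark pairs whose counting interval in a single draw lies above or below 1: 7 and 5 in parental cells, 2 and 2 in persister cells.

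The parental cells with a TFAP2B UMI were then described by other genes. In these 665 cells AXL was at 18.9 CPM (14.6 to 24.2), and in the 8429 without at 35.2 CPM (33.4 to 37.1). FOXD3 was at 6.92 CPM with and 2.78 CPM without TFAP2B, SOX4 at 48.7 and 31.4 CPM, SOX11 at 52.3 and 35.6 CPM, and SOX10 at 150 and 97.4 CPM. Across the parental cells the genes most correlated with TFAP2B were GNAS (Pearson r = 0.191), FXYD3 (0.175), SLC26A2 (0.165), S100B (0.153) and S100A1 (0.147), over 9094 cells of 1 library at equal depth. S100B, a marker of the melanocyte and Schwann lineage, was at 105 CPM with and 41.5 CPM without TFAP2B. CAV1, the caveolae protein, was at 198 and 418 CPM, and THBS1, a matrix glycoprotein, at 201 and 396 CPM. These last 2 genes were chosen after their values were seen. Of the cells with TFAP2B, 14.9% were called G1, against 6.30% of those without, and the part of phase in these differences was not tested.

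In the persister library the cells with a SOX4 UMI were described in the same way. NGFR was at 3.82 CPM in the 2302 cells with SOX4 and at 10.3 CPM in the 3595 without, and SOX11 at 31.8 and 20.4 CPM. FOXD3 was at 11.4 and 8.12 CPM. SOX4 correlated most with TIMP1 (r = 0.264), TFPI2 (0.224), TMSB10 (0.210), LGALS1 (0.209) and ETHE1 (0.2045) over 5897 cells of 1 library at equal depth, and 66 genes had r of at least 0.1. TIMP1, an inhibitor of matrix metalloproteinases, was at 10593 CPM with and 6709 CPM without SOX4. CAV1, THBS1 and NNMT were lower in cells with SOX4, at 15.3 against 41.3 CPM, 83.3 against 214 CPM and 45.9 against 134 CPM, and were chosen after their values were seen.

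Persister cells with an NGFR UMI were described last. In these 208 cells SOX4 was at 59.6 CPM and in the 5689 without at 138 CPM, and AXL was at 57.7 and 41.9 CPM. The co-detection ratio of AXL and NGFR in persister cells was 1.14 (0.830 to 1.53), so no direction was read for AXL. CAV1 was at 88.5 and 29.1 CPM, THBS1 at 440 and 153 CPM, NNMT at 277 and 92.9 CPM, and TIMP1 at 3210 and 8409 CPM, 4 genes chosen after their values were seen. Other regulators showed no such contrast: MSX1 was at 24.0 CPM with and 23.8 CPM without NGFR, and FOXD3 at 9.62 and 9.39 CPM, with intervals of the ratio that included 1.

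**Figure D5:**
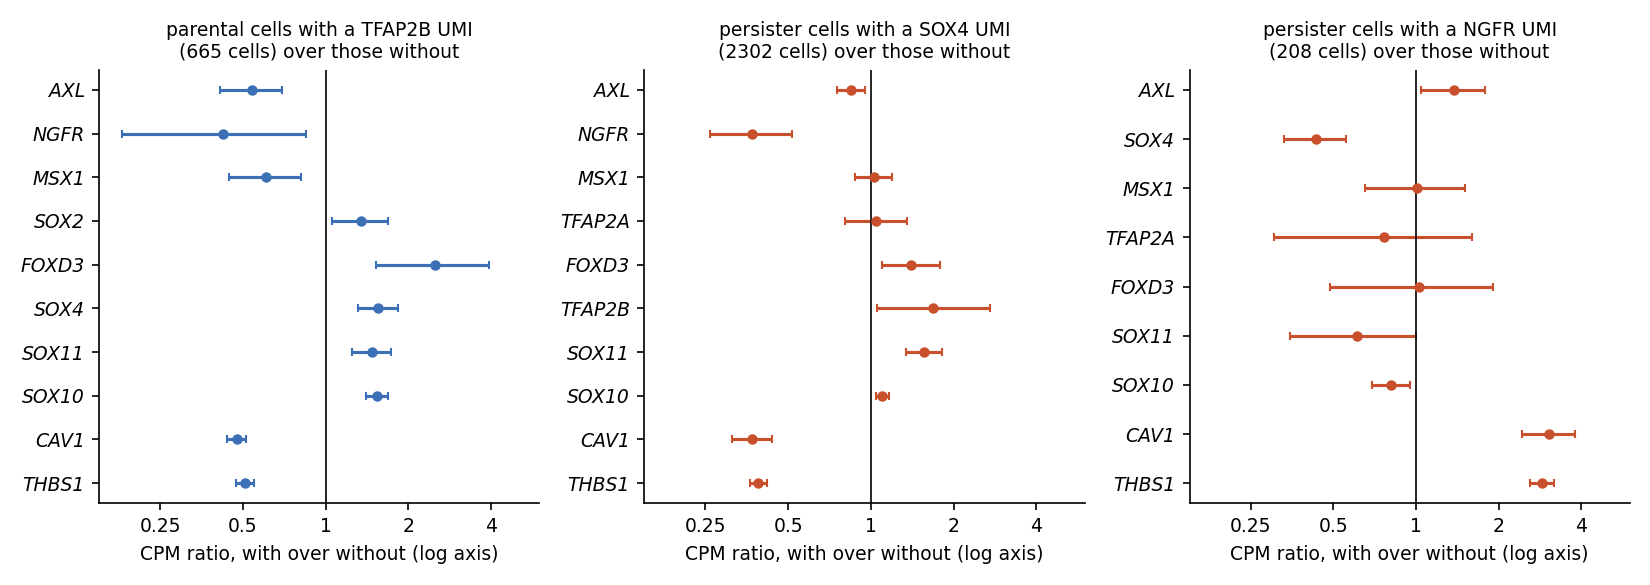
CPM of other genes in cells with a UMI of one regulator over cells of the same library without it (log axis, 5000 UMIs per cell, bars are 95% exact counting intervals): TFAP2B in parental cells, SOX4 and NGFR in persister cells. CAV1 and THBS1 are below 1 beside TFAP2B and SOX4 and above 1 beside NGFR.

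For the other regulators seen in at least 5% of cells, correlations with other genes were weak. SOX11 was closest to GNAS in parental cells (r = 0.131) and to TIMP1 in persister cells (r = 0.145). AXL in persister cells was closest to the ephrin receptor gene EPHA2 (r = 0.107) and to TNFRSF12A (r = 0.103). The highest r of AXL, SOX2, SOX4 and MSX1 in parental cells ran from 0.0568 to 0.0781, and that of MSX1 in persister cells was 0.0564, so no gene is named for them.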

How the data were processed

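Gene-by-barcode UMI counts of 2 libraries (10x Chromium 3′ v3, 1 per group) were used as the authors deposited them, whole numbers with no normalization. The submitters' processing notes list Cell Ranger 3.1.0 and GRCh38. Annotation release and strand setting of the counting are not given in the sources used here. Barcodes were kept with at least 500 genes, 1000 UMIs and at most 20% mitochondrial UMIs, and those with 3 or more of CD2, CD3D, CD3E, CD52, PTPRC and TRAC were set aside. No doublet caller was used, and an alternative left out the deepest 5% of barcodes. UMIs were summed per library and scaled to CPM, with exact Poisson intervals for sums, exact binomial intervals for ratios and Clopper-Pearson intervals for shares, all at 95%. A floor of 3 UMIs is 0.0340 CPM (parental) and 0.0377 CPM (persister). A gene was measured at 5 CPM or more in either library and called at a 2-fold ratio. Shares, phases, co-detection and correlations used 5000 UMIs drawn at random per cell. Shallower cells, 1536 parental and 708 persister, were left out. Phases were scored in scanpy 1.11.5 over the cells of both libraries together. TMM factors came from edgeR 4.0.16, used only for scaling. Scripts ran in Python 3.11.15 and were tested on simulated data. Gene positions are those of GENCODE 29, and promoter windows are RefSeq's.

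Named genes were the 10 regulators, the measured genes farthest from a log2 ratio of 0 in each list (up to 4), MITF, SOX10, PAX3, TFAP2C, GAS6 and NTRK2, and up to 5 genes of r at or above 0.1 per regulator. The regulators, lists and rules were chosen with earlier results of these data known. Alternatives covered cell and T cell filters, phase, depth, scaling, the CPM minimum and the random draw.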

Additional observations from a re-analysis of the deposited data

How the results depend on the processing

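Counts of regulators past 2-fold were 2 higher and 2 lower under each alternative run for them: a stricter cell filter, both T cell filter settings, no barcodes of the deepest 5%, per-cell means, cells of each phase, TMM scaling, log2(CPM + 1) differences and no CPM minimum. In cells called S the 2 higher genes were SOX4 and NGFR, not FOXD3. With no CPM minimum, 30 list genes of 118 were higher and 27 lower, where 12.2% and 12.0% of all 23902 genes passed. The parental co-detection ratio of AXL and NGFR was 2.17 and 1.33 in single draws of 2000 and 10000 UMIs, and 1.40 without reduction of depth. In cells called G1, TFAP2B gave 83.4% (parental) and 27.8% (persister) of TFAP2A plus TFAP2B UMIs. Crossing of 1 was seen for 3 pairs: SOX2 with FOXD3 in parental cells called G1 (a ratio of 0, with 0 cells against 0.925 expected), TFAP2B with FOXD3 in parental cells at 2000 UMIs (0.531, 1 cell against 1.88) and AXL with SOX4 in persister cells without reduction (1.02). The cause was not tested; in the first 2, few cells were expected. No paired analysis was possible because each group has 1 library. Depth limits SOX9 and the persister levels of SOX2 and TFAP2B.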
